A study of Mus musculus with 2 samples.

Results

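Genes for the proteins of the mitochondrial ribosome were examined in 2 RNA-seq libraries of mouse B cell precursors. The genes were all those whose RefSeq symbol begins with Mrpl, for the large subunit, or Mrps, for the small subunit, followed by a number. They were chosen by name alone, and 78 of the 20246 protein-coding genes with a symbol met the rule, 49 of the large and 29 of the small subunit. mRNA level was measured as FPKM, the fragments assigned to a transcript divided by its length and by the size of the library. Levels of different genes can be set side by side as far as the annotated lengths hold. FPKM were summed over the protein-coding RefSeq transcripts of each gene.

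The 2 cell types were pre-pro-B cells, B lineage progenitors not yet committed, and pro-B cells, the committed stage that follows. Pre-pro-B cells carried the *Ebf1* -/- genotype, lack the transcription factor EBF1 and came from the liver of female embryos. Pro-B cells carried the *Rag2* -/- genotype, lack a recombinase subunit and came from the bone marrow of adult males. Both were of C57BL/6 background and were grown on OP-9 stromal cells with 5 ng/mL of Il-7. Pre-pro-B cells received Scf and Flt3l in addition, each at 10 ng/mL. Total RNA depleted of ribosomal and small RNAs was made into strand-specific libraries and sequenced to a nominal depth of 90000000 single-end reads of 97 bases per library. Cell type was joined with genotype, sex, age, tissue and cytokines, and these cannot be told apart. There was 1 library per cell type, so no difference given here has a replicate check and no test was made.

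The mitochondrial ribosome translates the few proteins that the mitochondrial genome encodes, all of them subunits of the respiratory chain and ATP synthase. Its ribosomal RNAs are made inside the organelle, whereas all of its proteins are encoded in the nucleus, made in the cytosol and imported. Many of these proteins descend from the ribosome of a bacterial ancestor, and others have no bacterial counterpart and were added during evolution. The small subunit reads the mRNA, and the large subunit joins the amino acids and releases the new chain at the inner membrane.

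Starts of some of these genes lie close to that of a gene on the other strand. A head-to-head neighbour was defined here as a gene on the opposite strand, transcribed away from the member, by annotated starts in mm9. Its start lay at most 1000 bases upstream of the start of the member. Pairs that overlapped at their starts by more than a short stretch were not counted. Such a neighbour was found for 17 of the 78 genes (21.8%), against 1139 of 9028 genes that passed the filter on low values, a mean of at least 1 FPKM over both libraries (12.6%) and 1693 of 22380 protein-coding genes of the annotation (7.56%). The stretches between the starts of 6 pairs are printed here from mm9, because they lie upstream of genes with the largest differences or the highest levels, or hold letters of known promoter motifs. Each is written from the neighbour toward the mitochondrial ribosomal protein gene, on the strand of the latter. Capitals mark the letters of 5 motifs searched on both strands, the NRF1 motif (GCGCA and GCGC on either side of any base), CCGGAAG (bound by ETS factors such as GABP), AAGATGGCG (YY1), CCAAT (NF-Y) and a palindromic element of 10 bases that stands as the second run of capitals in the stretch of *Mrpl57*. The stretches were chr14:58445001-58445075 for *Mrpl57* and *Ska3*, chr13:100114634-100114740 for *Mrps27* and *Ptcd2*, chr5:101227620-101227645 for *Mrps18c* and *Helq*, chr7:29526840-29527009 for *Mrps12* and *Sars2*, chr19:6057759-6057892 for *Mrpl49* and *Fau*, and chr17:25032033-25032060 for *Mrps34* and *Eme2*.
Mrpl57/Ska3: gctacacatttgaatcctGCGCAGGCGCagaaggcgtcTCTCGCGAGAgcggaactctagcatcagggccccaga
Mrps27/Ptcd2: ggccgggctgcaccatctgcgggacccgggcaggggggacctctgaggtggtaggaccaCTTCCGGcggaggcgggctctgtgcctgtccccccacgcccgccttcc
Mrps18c/Helq: gaCTTCCGGcccgggaagcgcgggaa
Mrps12/Sars2: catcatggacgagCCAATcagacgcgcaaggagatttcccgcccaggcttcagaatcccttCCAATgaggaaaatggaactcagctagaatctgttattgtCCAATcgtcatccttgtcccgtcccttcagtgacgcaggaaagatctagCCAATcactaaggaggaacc
Mrpl49/Fau: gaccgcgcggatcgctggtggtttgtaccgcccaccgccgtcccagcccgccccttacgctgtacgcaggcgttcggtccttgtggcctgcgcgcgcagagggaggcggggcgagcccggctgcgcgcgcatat
Mrps34/Eme2: gcttttgttcaggacaccggccgcttcc
The stretch of *Mrpl57* held an NRF1 match and the palindromic element within 75 bases. The stretches of *Mrps27* and *Mrps18c* each held an ETS match on the opposite strand, read here as CTTCCGG. Between *Mrps12* and *Sars2*, CCAAT occurred 4 times. The short stretch upstream of *Mrps34* and that upstream of *Mrpl49* held no capital letters. These matches are descriptions of letters, and binding was not measured here.

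All 78 genes were detected in both libraries at 1 FPKM or more, none had a failed estimate, and none was listed at 0. The summed FPKM of the family was 2011 at the pre-pro-B stage and 2452 at the pro-B stage, a ratio of 1.22. The median gene had an FPKM of 19.2 at the pre-pro-B stage and 22.8 at the pro-B stage. Medians of all genes that passed the filter were 13.8 and 12.5, and 55 of the 78 genes lay above this median at the pre-pro-B stage and 61 at the pro-B stage. Most proteins of the mitochondrial ribosome are present in a single copy per particle, but the FPKM of the 78 genes spanned 40.3-fold at the pre-pro-B stage and 52.3-fold at the pro-B stage. The low end at the pre-pro-B stage was *Mrps36*, whose product has since been assigned to another complex. Over the 46 genes with a bacterial homolog, which leave it out, the spans were 31.7-fold and 52.3-fold. The order of the genes was similar in the 2 libraries, with a Spearman's rho of 0.886 over the 78 genes and of 0.734 over the 10113 genes that passed the filter. These correlations are across genes, which share library and depth and are not replicates.

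**Figure D1:**
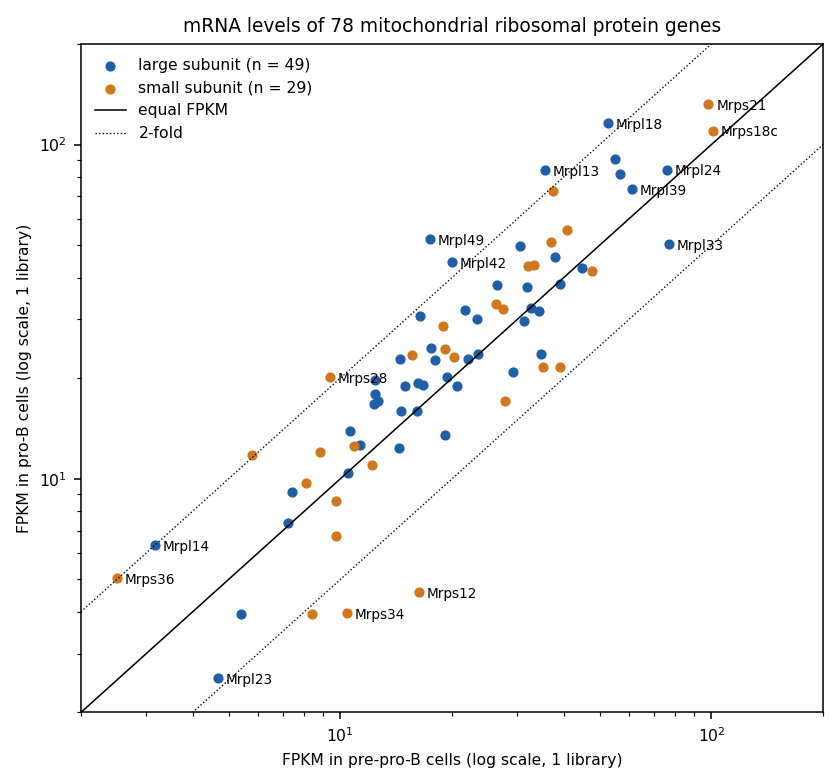
mRNA levels of the 78 genes, each point 1 gene, with FPKM at the pre-pro-B stage on the x axis and at the pro-B stage on the y axis, both on log scales. Points lie along the diagonal from 2.50 FPKM upward, and *Mrpl49* and *Mrps12* lie farthest from it.

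Among small subunit genes, *Mrps21*, whose bacterial homolog is protein S21, had 98.1 FPKM at the pre-pro-B stage and 132 at the pro-B stage. *Mrps18c*, the homolog of bacterial S18, had 101 and 110 FPKM. These levels were the highest in the small subunit, and at the pre-pro-B stage the highest of all 78 genes. *Mrps9* (37.4 and 72.5 FPKM), *Mrps14* (40.8 and 55.4) and *Mrps16* (47.6 and 41.8), all homologs of bacterial proteins, came next by mean level. In the large subunit, *Mrpl18* had 52.7 FPKM at the pre-pro-B stage and 116 at the pro-B stage. *Mrpl24*, which in bacteria starts assembly of the large subunit, had 75.9 and 84.1 FPKM. *Mrpl30* (54.8 and 90.3), *Mrpl52* (56.6 and 81.6) and *Mrpl39* (61.1 and 73.7) completed the 5 highest by mean. *Mrpl33*, a homolog of bacterial L33, had 76.7 FPKM at the pre-pro-B stage, where only *Mrps18c* and *Mrps21* were higher, and had 50.5 FPKM at the pro-B stage. At the low end, *Mrps36* had 2.50 FPKM at the pre-pro-B stage and 5.06 at the pro-B stage. Despite its name, its product has since been assigned to the ketoglutarate dehydrogenase complex of the citric acid cycle. *Mrpl23* had 4.68 and 2.53 FPKM and was the lowest at the pro-B stage.

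Each deposited FPKM came with a 95% interval from the authors' model, and these intervals were wide. Of the 71 other genes with a single transcript, 67 had an interval that overlapped that of *Mrps18c* at the pre-pro-B stage, and 63 overlapped that of *Mrps21* at the pro-B stage. The order of levels is therefore a description of these libraries. Annotated lengths ran from 407 bases (*Mrps21*) to 6712 (*Mrpl17*, with 5.40 and 3.95 FPKM), and the short *Mrpl14* (595 bases) had 3.17 and 6.34 FPKM. The part of length in this order was not tested. With this nominal depth, the median gene of the family rested on about 2306 fragments at the pre-pro-B stage and 2496 at the pro-B stage. The fewest fragments behind any of the 78 genes were about 161 and 132.

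Most genes differed little between the cell types. A 2-fold difference on the scale of FPKM plus 1 was seen in 7 of 78 genes (8.97%), of which 5 were higher at the pro-B stage and 2 lower. Over the 10113 genes that passed the filter, 30.0% differed by at least 2-fold, 12.2% being higher at the pro-B stage and 17.8% lower. The share in the family was thus below the background in both directions. The median log2 difference was 0.24 for the family (quartiles -0.07 and 0.49) and -0.13 for all genes (quartiles -0.69 and 0.41). Higher values at the pro-B stage were seen for 53 of the 78 genes (67.9%) and for 43.2% of all genes. The SD of the log2 difference across genes was 0.55 in the family and 1.41 among all genes. These values describe genes of 1 library pair, and a difference from the other genes was not tested. At 1.5-fold, 14 of the genes were higher at the pro-B stage, 8 were lower and 56 lay within that range, so that 28.2% of the family passed this limit, against 48.4% of all genes. Among genes with a mean FPKM of at least 10, the family had 66, of which 5 were at least 2-fold higher and 1 lower (9.09%), against 24.3% of 6084 genes.

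Large and small subunits had the same median difference, 0.24 on the log2 scale in both, with a gap between them of 0.0014. Of the 49 large subunit genes, 34 were above 0 and 15 below, and 4 were at least 2-fold higher at the pro-B stage with 0 lower. Of the 29 small subunit genes, 19 were above 0 and 10 below, with 1 at least 2-fold higher and 2 lower. Summed FPKM of large subunit genes was 1242 at the pre-pro-B stage and 1567 at the pro-B stage, a ratio of 1.26. For the small subunit the sums were 768.6 and 884.8, a ratio of 1.15. Genes with a bacterial homolog (46) had a median log2 difference of 0.24 and those of mitochondria-specific proteins (32) a median of 0.25. *Mrps18a* and *Mrps18b* were counted among the mitochondria-specific genes, although they are paralogs of *Mrps18c*, the homolog of bacterial S18. The split is to that extent approximate. The smallest difference of a sum was that of the 13 mitochondria-specific genes of the small subunit, with 244.9 FPKM at the pre-pro-B stage and 253.5 at the pro-B stage. Of these genes, 8 were above 0 and 5 below.

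**Figure D2:**
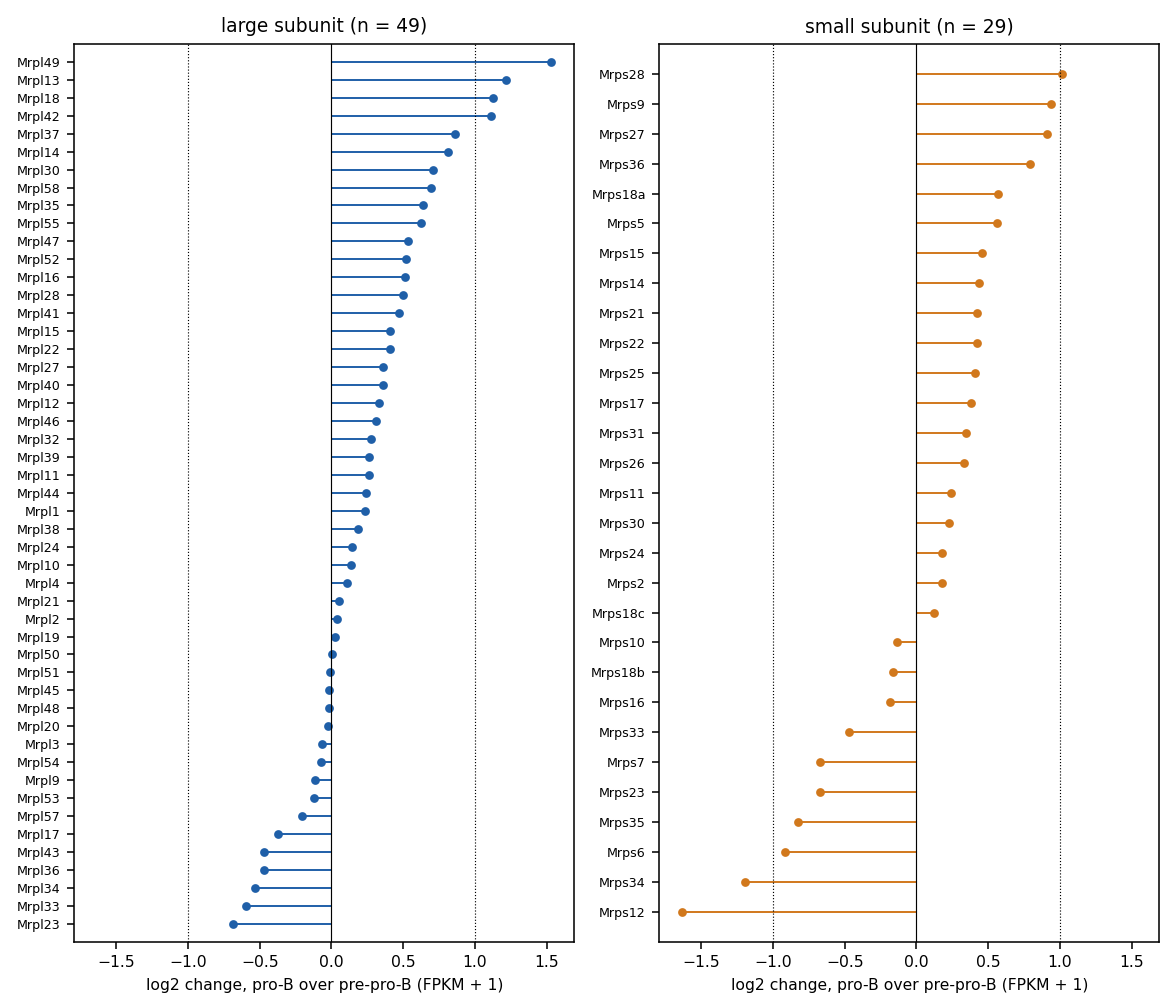
Log2 difference of every gene, pro-B over pre-pro-B on the scale of FPKM plus 1, with the large subunit (49 genes) on the left and the small subunit (29 genes) on the right, dotted lines marking 2-fold. Differences run from -0.69 to 1.53 in the large subunit and from -1.63 to 1.02 in the small subunit.

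The 5 genes that were at least 2-fold higher at the pro-B stage included 4 of the large subunit. *Mrpl49* encodes a protein with no bacterial counterpart and lies on chromosome 19 of mm9 (6053630 to 6057758, minus strand). It had 17.4 FPKM at the pre-pro-B stage (interval 0.204 to 40.5) and 52.2 at the pro-B stage (interval 1.12 to 123), a log2 difference of 1.53 and the largest among genes higher at the pro-B stage. Its neighbour *Fau* encodes a ribosomal protein of the cytosolic small subunit fused to a ubiquitin-like protein. *Fau* starts 135 bases away and had 6.26 and 7.26 FPKM. Many genes for cytosolic ribosomal proteins have near-identical copies elsewhere in the genome, so this level is uncertain. *Mrpl13*, the homolog of bacterial L13, lies on chromosome 15 (55365649 to 55389303, minus strand). It had 35.5 FPKM (interval 1.71 to 85.3) and 83.7 FPKM (interval 5.38 to 177), a log2 difference of 1.21. *Mrpl18* lies on chromosome 17 (13104215 to 13109211, minus strand), and its bacterial counterpart binds the 5S ribosomal RNA. Its FPKM was 52.7 at the pre-pro-B stage (interval 4.0 to 124) and 116 at the pro-B stage (interval 3.5 to 254), a log2 difference of 1.12.

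*Mrpl42*, a further mitochondria-specific protein, lies on chromosome 10 (94943440 to 94964561, minus strand). It had 20.01 FPKM (interval 0.653 to 39.3) and 44.5 FPKM (interval 4.75 to 84.2), a fold of 2.17. *Mrps28*, of the small subunit, lies on chromosome 3 (8802146 to 8923918, minus strand). It had 9.40 FPKM at the pre-pro-B stage (interval 0 to 21.4) and 20.1 at the pro-B stage (interval 0.219 to 42.1), a fold of 2.02 that lay just past the limit. Just inside it were *Mrps9*, with a log2 difference of 0.94, and *Mrps27*, which encodes an RNA-binding protein and had 5.80 and 11.8 FPKM, a log2 difference of 0.91. *Mrpl37* (16.4 and 30.6 FPKM) and *Mrpl14* (3.17 and 6.34 FPKM) followed with 0.86 and 0.82.

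Both genes that were at least 2-fold lower at the pro-B stage belonged to the small subunit. *Mrps12*, the homolog of the bacterial protein S12 of the decoding centre, lies on chromosome 7 (29524660 to 29526839, minus strand). It had 16.3 FPKM at the pre-pro-B stage (interval 0.173 to 35.5) and 4.58 at the pro-B stage (interval 0 to 11.6). Its log2 difference was -1.63, and its place in the order of levels was 48 at the pre-pro-B stage and 74 at the pro-B stage. *Sars2*, the mitochondrial seryl-tRNA synthetase that starts 171 bases away on the other strand, had 4.78 and 3.42 FPKM, a log2 difference of -0.39. *Mrps34* encodes a mitochondria-specific protein and lies on chromosome 17 (25032061 to 25034447, plus strand). It had 10.4 FPKM (interval 0.088 to 27.9) and 3.97 FPKM (interval 0 to 12.2), a log2 difference of -1.20. *Mrps34* overlaps *Nme3* on the same strand, where reads of one gene can be counted for the other. Its head-to-head neighbour *Eme2*, a subunit of a DNA endonuclease, had 6.47 and 3.76 FPKM and a log2 difference of -0.65.

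The next lower values at the pro-B stage were those of *Mrps6* (8.37 and 3.95 FPKM, log2 difference -0.92), which overlaps Slc5a3 on the same strand, *Mrps35* (39.0 and 21.6 FPKM, -0.82) and *Mrpl23* (-0.69). *Mrpl23* was the first large subunit gene in this order, and RefSeq lists a pseudogene named after it, so that its reads could be shared. In the middle of the family, *Mrps11* had 8.09 and 9.73 FPKM and *Mrpl44* had 16.2 and 19.4. *Mrpl50* had 23.5 FPKM at the pre-pro-B stage and 23.6 at the pro-B stage, and *Mrpl51* had 32.6 and 32.4. For all 82 transcripts of the family with a mean FPKM of at least 1, the authors' intervals of the 2 libraries overlapped, and 0 were separate, against 4.47% of 12010 transcripts. None of the 2-fold differences therefore exceeded the intervals.

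**Figure D3:**
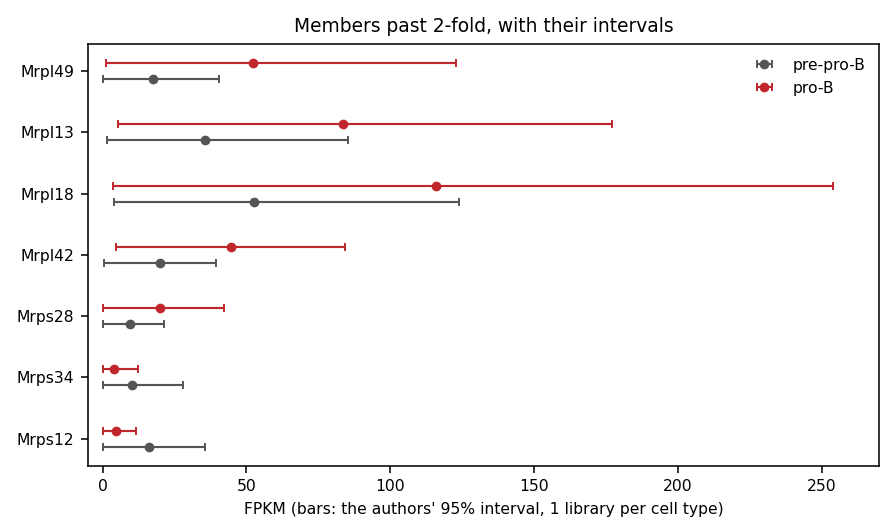
FPKM of the 7 genes that differed by at least 2-fold, 1 point per library, with bars for the authors' 95% intervals. In all 7 genes the bars of pre-pro-B and pro-B cells overlap.

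The Mrps18 paralogs show how members of 1 small family differed in level. *Mrps18c* had 101 and 110 FPKM, a log2 difference of 0.12. *Mrps18a* had 18.9 FPKM at the pre-pro-B stage and 28.6 at the pro-B stage, a difference of 0.57, and its protein sits in the large subunit in spite of its symbol. *Mrps18b* had 9.73 and 8.58 FPKM, a difference of -0.16. Levels thus differed more between the paralogs than between the cell types. The proteins of the stalk, which recruits translation factors to the large subunit, all lay within 2-fold between libraries. *Mrpl10*, its base, had 11.3 and 12.6 FPKM. *Mrpl11* had 7.43 and 9.11, and *Mrpl12*, present in several copies per ribosome, had 14.9 and 19.0. *Mrps30*, whose protein is likewise found in the large subunit, had 27.5 and 32.3 FPKM.

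Only 6 of the 78 genes had more than 1 protein-coding RefSeq transcript. In 1 of them the more abundant transcript differed between the libraries, which the sum over transcripts hid. Of the transcripts of *Mrps10*, a homolog of bacterial S10, NM_001146211 had 5.72 FPKM at the pre-pro-B stage and 11.0 at the pro-B stage. Its intervals were 0 to 17.2 and 0.0828 to 26.4. NM_001146212 had 6.47 FPKM, 53.1% of the gene's total, at the pre-pro-B stage and 0.00488 at the pro-B stage, where about 0.448 fragments were assigned to it. Its interval at the pre-pro-B stage was 0 to 18.6, so which transcript was the more abundant there is not settled. The sum was 12.2 and 11.0 FPKM, a log2 difference of -0.14. In *Mrps2* and *Mrps36* a minor transcript was near 0 at the pre-pro-B stage only. NM_001166031 of *Mrps2* had 0.0230 FPKM there and 3.48 at the pro-B stage (15.1% of the gene), beside 20.3 and 19.6 for NM_080452. NM_001190264 of *Mrps36* had 0.000541 and 1.02 FPKM. In *Mrpl1*, *Mrpl15* and *Mrps33* the same transcript was the more abundant in both libraries. Transcripts of 1 gene share most of their sequence, so the authors' model had to divide reads between them, and these shares are estimates.

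Other genes of the mitochondrial translation system were set beside the family. Of the mitochondrial ribosomal proteins with other symbols, 5 were measured apart from the 78 genes, with a median log2 difference of 0.34. *Gadd45gip1*, a large subunit protein at the exit of the peptide tunnel, was 2-fold lower or more, with 19.9 FPKM at the pre-pro-B stage and 7.45 at the pro-B stage. *Dap3*, the GTP-binding protein of the small subunit, had 17.01 and 26.8 FPKM. Among 18 assembly factors the median was 0.15, and 1 passed 2-fold. This was *Rbfa*, which binds the small subunit while it is being built, with 36.5 FPKM at the pre-pro-B stage and 9.01 at the pro-B stage (log2 difference -1.91). Among 12 translation factors the median was -0.02, and *Mtfmt*, which formylates the initiator methionyl-tRNA, had 12.8 and 5.35 FPKM (-1.12). None of 11 genes for maintenance and transcription of mitochondrial DNA passed 2-fold. The 2 with the highest levels were *Slirp*, an RNA-binding protein that stabilises mitochondrial mRNAs, with 145 and 180 FPKM, and *Ssbp1*, the single-stranded DNA-binding protein, with 97.9 and 110.

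Of 9 transcriptional regulators of mitochondrial genes, 7 passed the filter, with a median log2 difference of -0.14. *Gabpb1*, a subunit of the ETS factor GABP, had 17.7 FPKM at the pre-pro-B stage and 44.1 at the pro-B stage (1.27). *Gabpa*, its DNA-binding partner, had 55.5 and 57.7. *Myc*, a growth regulator that activates many ribosome genes, had 19.0 and 5.88 FPKM (-1.54). *Nrf1* had 23.6 and 32.6 FPKM, and *Yy1* had 58.3 and 52.8.

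The nuclear-encoded subunits of the respiratory chain, most of them partners of proteins that the mitochondrial ribosome makes, were compared too. Their median log2 difference was 0.40 over 79 genes that passed the filter. Of these, 7 were at least 2-fold higher at the pro-B stage and 1 was lower. Summed FPKM over all 87 measured genes was 7501 and 9517, a ratio of 1.27. *Cox7a1*, a cytochrome c oxidase subunit form known from heart and muscle, was listed at 0 at the pre-pro-B stage and had 32.6 FPKM at the pro-B stage. *Cox5b*, of the same complex, had 20.4 and 57.4 FPKM. *Ndufa4*, named for complex I but since placed in cytochrome c oxidase, had 77.3 and 169 FPKM. In complex I, *Ndufa5* had 73.2 and 163 FPKM, and *Ndufb8* had 48.6 and 100.1. The ATP synthase genes were *Atp5k* with 174 and 361 FPKM and *Atp5l* with 2.25 and 7.34. *Cox6a2*, the form of a cytochrome c oxidase subunit known from muscle, was the lower one, with 246 and 47.8 FPKM. Some genes of this list had very low values, as *Ndufs5* (0 and 4.91e-05 FPKM), *Ndufb4* (1.32 and 1.18) and *Cycs* (2.51 and 1.98). *Cox6c* had 356 and 535, and *Atp5l* was itself among the low ones. The cause of these low values was not tested. The median, the sums and the share above 0 of the respiratory chain rest in part on them. The cytosolic ribosomal proteins, which form the other ribosome of the cell, had a median of -0.25 over 77 genes, with 0 at least 2-fold higher at the pro-B stage and 10 lower. Over all 84 measured genes, summed FPKM was 20688 at the pre-pro-B stage and 17982 at the pro-B stage, a ratio of 0.869. Many cytosolic ribosomal protein genes have near-identical copies elsewhere in the genome, so that single values across this list are uncertain. *Rps12* was listed at 1.45 and 1.47 FPKM, beside 1528 and 1682 for *Rps21*. The median, the sums and the share above 0 of this list rest on such values. The 10 lower genes were *Rpl29* (237 and 1.91 FPKM), *Rpl3* (114 and 1.52), *Rps3a1* (290 and 22.4), *Rpl30* (104 and 25.6), *Rps6* (11.04 and 2.11), *Rpl3l* (2.70 and 0), *Rpl27a* (47.8 and 16.6), *Rpl17* (7.92 and 2.36), *Rplp0* (478 and 186) and *Rpl26* (19.8 and 7.73). The share of genes above 0 was 81.0% for the respiratory chain, 67.9% for the mitochondrial ribosome and 29.9% for the cytosolic ribosome. The lists were described by these counts, and differences between them were not tested.

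**Figure D4:**
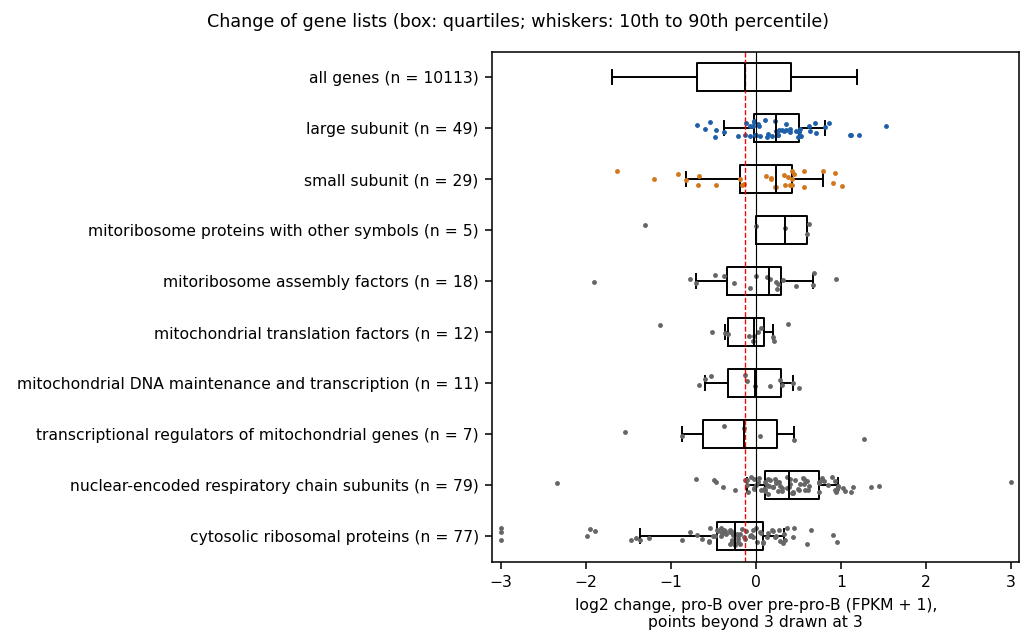
Log2 differences, pro-B over pre-pro-B on the scale of FPKM plus 1, of all genes, of both mitochondrial ribosomal subunits and of 7 comparison lists, with boxes for the quartiles, whiskers to the farthest gene within the 10th to 90th percentile, and 1 point per gene except for all genes. Medians of both subunits lie at 0.24, between that of the cytosolic ribosomal proteins (-0.25) and that of the respiratory chain (0.40), and the dashed line marks the median of all genes (-0.13).

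Promoter windows of 300 bases, from 250 before to 50 after the annotated start, were available from RefSeq on GRCm38.p6 for 69 of the 78 genes, with 75 windows. *Mrpl13*, *Mrpl15*, *Mrpl19*, *Mrpl38*, *Mrpl4*, *Mrpl54*, *Mrps28*, *Mrps34* and *Mrps35* were without an entry. The ETS letters CCGGAAG occurred on either strand in 34.7% of the windows of the family, in 19.4% of those of genes that passed the filter and in 11.6% of those of all protein-coding genes. For the NRF1 letters the shares were 17.3%, 11.1% and 6.38%, and for the YY1 letters AAGATGGCG they were 10.7%, 3.39% and 1.83%. The E-box CACGTG, bound by MYC among others, occurred in 9.33%, 10.3% and 7.84%. For CCAAT the shares were 40.0%, 38.3% and 38.2%, for the Sp1 letters GGGCGG 52.0%, 63.6% and 46.2%, and for TATAAA 6.67%, 6.82% and 12.6%. The palindromic element was in 1.33% of the windows of the family, that of *Mrpl57* alone, against 1.13% and 0.673%. Genes with several windows count more than once in these shares. Counted per gene in the same order, CCAAT was in 39.1%, 43.6% and 42.3%, and CACGTG in 7.25%, 12.3% and 8.91%. For the ETS, NRF1 and YY1 letters the family also had the largest share per gene. The motifs can overlap each other, and the shares were not tested.

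**Figure D5:**
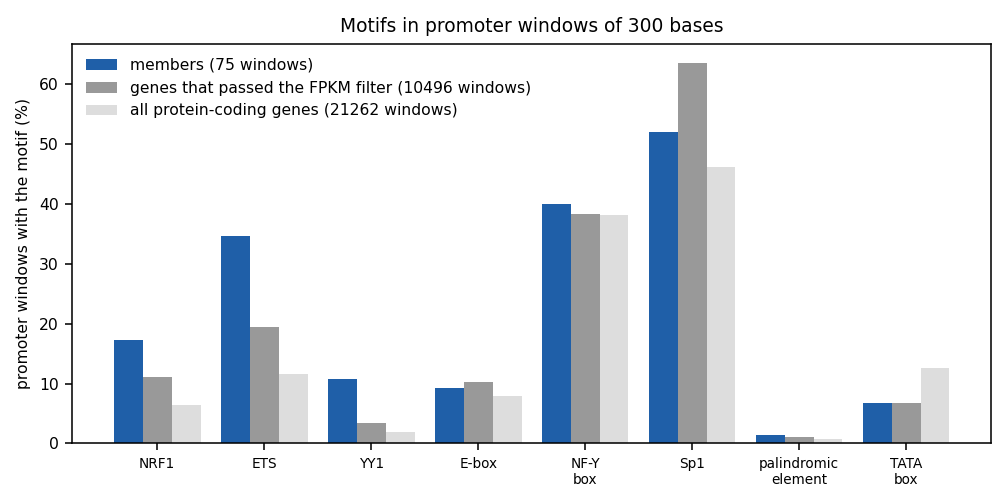
Share of promoter windows of 300 bases (y axis, percent) that hold each of 8 motifs on either strand, for the mitochondrial ribosomal protein genes (75 windows), genes that passed the FPKM filter (10496) and all protein-coding genes (21262). ETS matches are in 34.7% of windows of the family and in 19.4% and 11.6% of the others.

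The YY1 letters were in the windows of 8 genes, *Mrpl35*, *Mrpl36*, *Mrpl37*, *Mrpl42*, *Mrps11*, *Mrps18a*, *Mrps24* and *Mrps27*. Their median log2 difference was 0.60, against 0.24 for the 61 genes with a window but no match. Of these 8, *Mrpl36* had 19.1 and 13.5 FPKM, a difference of -0.47, and the others were above 0. For the 26 genes with the ETS letters the median was -0.01, against 0.31 for the 43 without. For the 13 genes with the NRF1 letters it was 0.27, against 0.24 for the 56 without. With and without CACGTG the medians were 0.04 (5 genes) and 0.27, with and without CCAAT 0.27 (27 genes) and 0.24, with and without the Sp1 letters 0.26 (34 genes) and 0.26, and with and without TATAAA 0.31 (5 genes) and 0.25. *Mrpl57*, alone with the palindromic element, had -0.21. None of these gaps was tested. The median GC content of the windows was 58.7% in the family and 60.8% in genes that passed the filter.

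Levels and differences were set beside those of head-to-head neighbours, without a test, and were alike in some pairs and unlike in others. *Mrps18c* had 101 FPKM at the pre-pro-B stage and 110 at the pro-B stage, while *Helq*, a DNA helicase that starts 27 bases away, had 7.48 and 7.24. *Mrpl32* had 37.8 and 46.0 FPKM beside 127 and 146 for the proteasome subunit gene *Psma2*, with log2 differences of 0.27 and 0.21. *Mrpl40* had 23.3 and 30.1 FPKM (0.36), and the histone chaperone gene *Hira* had 7.26 and 11.0 (0.53). *Mrpl41* had 17.5 and 24.6 FPKM (0.47), whereas *Pnpla7* had 21.1 and 5.65 (-1.73). *Mrpl51*, with 32.6 and 32.4 FPKM, lies beside *Ncapd2*, a condensin subunit with 39.4 and 111 FPKM, a log2 difference of 1.47. *Mrpl57* had 14.4 and 12.4 FPKM, and *Ska3*, a kinetochore protein, had 9.78 and 25.2 (1.28). *Mrps27* was higher at the pro-B stage (0.91), and *Ptcd2*, a gene for a further mitochondrial RNA-binding protein, had 18.3 and 17.03 FPKM (-0.10). *Mrpl46* and *Mrps11* overlap at their starts on opposite strands of chromosome 7, which the strand-specific libraries can separate. Because of this overlap they were not counted as head-to-head neighbours. *Mrpl46* had 18.04 and 22.6 FPKM, a difference of 0.31, and *Mrps11* 0.24. In all, the 78 genes lay on 17 chromosomes, with 11 on chromosome 11 and 8 on chromosome 17.

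The libraries were checked against their labels. *Ebf1* had 64.0 FPKM in *Ebf1* -/- pre-pro-B cells and 273 at the pro-B stage, and *Rag2* had 22.9 FPKM in *Rag2* -/- pro-B cells and 34.5 at the pre-pro-B stage. Neither was at 0, and an FPKM over the whole transcript does not show which exons the reads came from. Summed FPKM of 3 pre-pro-B markers was 944 at the pre-pro-B stage and 2.82 at the pro-B stage, and that of 6 pro-B markers was 4.99 and 1900. Of 3 markers listed for both stages, *Il7r* had 349 and 424 FPKM and *Rag1* had 24.4 and 64.4. The third, *Ptprc*, which encodes the pan-leukocyte antigen CD45, had 269 and 0.917 FPKM. This low value at the pro-B stage goes against the label, whereas *Il7r* and *Rag1* do not. Markers of other cells were also unequal. Their sums were 61.0 and 6.52 FPKM for 5 myeloid markers, 75.1 and 3.13 for 3 T lineage markers, 18.5 and 8.48 for 6 stromal markers and 0.196 and 0.145 for 3 erythroid markers. The stromal sum was lower at the pro-B stage through *Pdgfrb* alone (15.9 and 0.377 FPKM), and the 5 other stromal markers were all higher there, *Col1a2* with 0.707 and 2.82 and *Sparc* with 1.13 and 2.81. The T lineage sum at the pre-pro-B stage came almost wholly from *Cd3g* (36.8 FPKM) and *Lck* (38.0). *Cd3e* had only 0.239 FPKM at the pre-pro-B stage and 0.102 at the pro-B stage. The myeloid sum at the pre-pro-B stage came mostly from *Mpo* (35.7 FPKM) and *Itgam* (19.7). *Lyz2* had 5.39 FPKM there and *Csf1r* had 0.170. Of the defining markers, *Elane* was at 0 in both libraries, and *Lyz2* and *Csf1r* were at 0 at the pro-B stage. The part of such cells in the differences of mitochondrial ribosomal protein genes was not tested. In bulk RNA, fewer cells that express a gene and less of its mRNA per cell cannot be told apart.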

How the data were processed

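RNA was sequenced in 1 library per cell type. The authors aligned the reads to mm9 with TopHat, version 1.5 in the submitters' processing notes although the study's parameter list names another, with up to 20 alignments per read. The authors deposited FPKM with 95% intervals for each RefSeq transcript, made with Cuffdiff 2.1.1. Corrections for multiply aligned reads and sequence bias were on, at least 10 alignments were needed, and libraries were not scaled to each other. A further deposited table holds the authors' log2 fold changes, p-values and q-values and was not used. Its 2 columns of FPKM by sample were likewise left out.

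FPKM were summed per gene over 26551 NM_ transcripts with a symbol, of 26968, with pandas 2.3.3 and numpy 2.4.6 in Python 3.11.15, beside scipy 1.17.1, and plotted with matplotlib 3.10.9. Log2 differences used a pseudocount of 1, which understates differences of low genes. Genes with a mean FPKM of at least 1 and every estimate successful were counted (10113). With 1 library per cell type no test was possible. Depth is nominal, from the labels, and approximate fragments are FPKM times length times nominal depth. Genes named were the 5 highest of each subunit, the 5 largest differences in each direction and those past 2-fold. Also named were those whose most abundant transcript differed between libraries, the Mrps18 paralogs and 2 at the middle. In each comparison list they were those past 2-fold, or the 2 highest. Other genes named were chosen after their values were seen. Classes by bacterial homolog follow the nomenclature of ribosomal proteins, from general knowledge. Members, lists and rules were chosen with earlier results of these data known. Starts and coordinates came from the GENCODE annotation of mm9, and promoter windows from RefSeq. Alternatives were other pseudocounts, scalings, filters, transcripts and folds. The scripts were tested on simulated data.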

Additional observations from a re-analysis of the deposited data

How the results depend on the processing

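Of 199 alternative values of summary results, 190 were within 1.5-fold of the reported ones. For medians and gaps the limit was a 1.5-fold shift of the ratio, larger than any of these medians. A change of sign could therefore pass. Dropping repeated entries of a transcript, including failed estimates or lifting the filter could not move values of the family. All 78 genes passed the filter, and none had a failed estimate or a repeated entry. With a pseudocount of 5, the genes past 2-fold were 3 higher and 1 lower at the pro-B stage. With a mean FPKM of at least 10, 1 was lower. At 1.5-fold, 14 were higher and 8 lower. As TPM, which rescales all values, the sums were 3643 and 4306 for the large subunit and 2254 and 2431 for the small subunit (pre-pro-B first). Of 69 alternative values of the 7 genes past 2-fold, 65 stayed past it and 0 changed direction. The 4 others were *Mrpl42* (0.99), *Mrps28* (0.80) and *Mrps34* (-0.78) with a pseudocount of 5, and *Mrps28* (0.97) as TPM. Only other pseudocounts and scalings could move these values. The remaining settings returned the reported value or left the gene out, because each of the 7 genes had a single transcript. Values under those settings were fixed in advance and are no check. The median of the family ranged from 0.16 to 0.36, and that of all genes from -0.22 to 0.00. The gap between large and small subunits ranged from -0.09 to 0.03 and had the other sign in 6 of 11 alternatives, so no order of the subunits can be read. The medians for mitochondrial DNA genes, translation factors and regulators crossed 0 under some settings (2, 1 and 1 of 10). Before the pseudocount was added, median-ratio scaling shifted the ratio of the libraries by 0.13 on the log2 scale and TPM by -0.09. Single genes moved by other amounts, as *Mrps12* did from -1.63 to -1.85 as TPM. Among all genes past 2-fold, 40.7% were higher at the pro-B stage, and 50.0% were with a mean FPKM of at least 10.

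No paired analysis was possible because each cell type had 1 library and no test was made. Leave-one-out values do not exist with 1 library per cell type, and wide intervals limit every single gene.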
